A study of Mus musculus with 6 samples.

Results

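The Wnt signalling genes of the heart examined here are the ligands (Wnt), their Frizzled receptors (Fzd) and the secreted inhibitors of the Sfrp and Dkk families. They were taken as the protein-coding genes of the deposited table whose symbol begins with Wnt, Fzd, Sfrp or Dkk followed by a digit. This gave 34 of 30914 genes, namely 16 Wnt, 10 Fzd, 4 Sfrp and 4 Dkk genes. RNA was sequenced from the hearts of wild-type male C57BL/6J mice that were 8 weeks old before the infusion, with 3 mice in the Ang II group and 3 in the Ang II + Tec group. All 6 mice received angiotensin II (Ang II), a pressor hormone that induces pathological cardiac hypertrophy, at 1 μg/kg/min from osmotic pumps for 4 weeks. In the Ang II + Tec group, tectochrysin (Tec), a plant flavonoid, was added at 5 mg/kg during the final 2 weeks. Hearts without Ang II were not analysed here, so the comparison is between infused hearts with and without Tec.

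Wnt proteins are lipid-modified signals that act between neighbouring cells. They bind Frizzled receptors together with the co-receptors Lrp5 and Lrp6, which stabilises β-catenin and lets it switch on target genes with factors of the TCF/LEF family, and some Wnts instead act through Frizzled and Ror or Ryk on the cytoskeleton and on calcium. Sfrp proteins carry a domain like that of the Frizzled receptors and bind Wnts outside the cell, and several Dkk proteins block Lrp5 and Lrp6. In the injured or overloaded adult heart, the pathway is best known for its activity in fibroblasts.

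The heart RNA had summed FPKM of 8709.6 to 10727.17 over 7 ventricular cardiomyocyte markers in the 6 libraries. The sum over 5 epithelial markers was 0.13 to 1.47 FPKM under Ang II alone and 0.88 to 1.98 FPKM with Tec. Among these, Epcam did not exceed 0.06 FPKM, whereas Krt18 reached 1.57 FPKM, in Ang II + Tec replicate 2. FPKM is the number of sequenced fragments relative to transcript length and to the total of mapped fragments, so levels of different genes can be set side by side. Each library held between 20998 and 22385 genes above 0. Transcripts of the mitochondrial genome took 40.1% to 48.9% of the summed FPKM in the Ang II group and 49.6% to 52.5% in the Ang II + Tec group. Values by library are given below in the order of replicates 1, 2 and 3. Ang II replicates 1 and 2 and Ang II + Tec replicate 2 held the atrial transcripts Myl7, Myl4 and Sln. These did not exceed 1.58 FPKM in the other 3 libraries, where Stard10 and Nppa were also lower but not near 0. The labels give the tissue as heart without saying which part was taken, and their extraction text speaks of adipose RNA, so whether the same part of each heart was sampled is not known here. The atrial myosin light chain gene Myl7 was at 418.96, 332.29 and 0 FPKM under Ang II alone, against 0, 1039.78 and 1.58 FPKM with added Tec.

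The upstream sequences of 3 members are shown to set genes that varied between hearts beside one that did not. The levels of Sfrp2 and Fzd1 varied widely between hearts and were high in the same pair of Ang II hearts, whereas that of Fzd4 was nearly level. Of the 34 genes, 23 had an entry in the RefSeq promoter table (GRCm38.p6). The 250 bases before the annotated start are given 5′ to 3′ on the strand of the gene. Capitals mark matches, on either strand, to CTTTGA or to CTTTGT, both with letters of the TCF/LEF motif. They also mark TATAAA as the TATA box, CCAAT as the box of that name and GGGCGG as the GC box, and neighbouring GC box matches can overlap.
Sfrp2: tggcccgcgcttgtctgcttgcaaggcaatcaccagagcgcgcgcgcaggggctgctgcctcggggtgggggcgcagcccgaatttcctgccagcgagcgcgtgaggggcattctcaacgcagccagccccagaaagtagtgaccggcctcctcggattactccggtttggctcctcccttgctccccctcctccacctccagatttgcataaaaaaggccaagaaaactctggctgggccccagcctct
Fzd1: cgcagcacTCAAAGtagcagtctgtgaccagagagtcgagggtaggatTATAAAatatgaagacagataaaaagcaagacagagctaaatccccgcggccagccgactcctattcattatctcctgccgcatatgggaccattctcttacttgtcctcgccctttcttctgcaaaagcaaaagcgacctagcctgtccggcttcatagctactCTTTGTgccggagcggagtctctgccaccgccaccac
Fzd4: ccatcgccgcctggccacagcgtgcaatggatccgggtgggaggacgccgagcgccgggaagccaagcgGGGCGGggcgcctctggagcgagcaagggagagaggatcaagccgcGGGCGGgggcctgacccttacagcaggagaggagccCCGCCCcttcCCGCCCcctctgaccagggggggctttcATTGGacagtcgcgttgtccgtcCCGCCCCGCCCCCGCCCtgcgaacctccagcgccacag
The Sfrp2 stretch (chr3:83766071-83766320, plus strand) had a GC content of 63.6% and held none of the 5 motifs. That of Fzd1 (chr5:4758217-4758466, minus strand) had a GC content of 51.2% and held 1 match to CTTTGA, another to CTTTGT and a TATA box match, and its RefSeq start lies upstream of the start of the gene in the deposited table. That of Fzd4 (chr7:89404116-89404365, plus strand) had a GC content of 72.8%, with 7 matches to GGGCGG and 1 to CCAAT, and its end overlaps the start of the gene in the deposited table. Over all 32851 promoters of the table, CTTTGA was found in 13.8% of the 250-base stretches, CTTTGT in 16.5%, the TATA box in 12.4%, the CCAAT box in 33.8% and the GC box in 32.7%. These matches describe the letters only.

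A gene was tested when its FPKM was at least 0.5 in at least 3 libraries, which 13089 genes and 16 of the 34 members did, namely 4 Wnt, 8 Fzd, 3 Sfrp and 1 Dkk gene. The comparison of Ang II + Tec with Ang II used limma on log2(FPKM + 1), a scale on which the change of weakly expressed genes is understated. Differential expression meant an adjusted p-value (Benjamini-Hochberg over the tested genes) under 0.05 together with a log2 fold change of 1 or more in size.

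None of the 16 members was differentially expressed in the fit of all 6 libraries with limma, against 0.16% of all tested genes, and 0 had an unadjusted p-value under 0.05 in either direction. Of all tested genes, 16.5% were lower with Tec at an unadjusted p-value under 0.05, and 2.09% were higher. The mean of 14 of the 16 members was lower with Tec, where 80% of all tested genes had a lower mean. With median-of-ratios scaling these became 11 of 16 members and 48.2% of all tested genes. The median log2 fold change was -0.31 for the members and -0.17 for all tested genes. Rescaling the libraries by the median of their ratios moved these medians to -0.19 and 0.0087. The difference between the members and all genes was -0.15 before and -0.20 after rescaling.

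The spread within the Ang II group differed between the tested members, and their positions between libraries were close to those of the whole table. In that group the highest value was from 1.08 (Wnt9a) to 41.3 (Dkk3) times the lowest. Ang II replicate 2 was the highest library for 11 of the 16 tested members, and Ang II replicate 3, Ang II + Tec replicate 1 or Ang II + Tec replicate 3 was the lowest for each of them. Ang II replicate 3 lay within the range of the Ang II + Tec hearts for 9 members, below it for 4 and above it for 3. Over all 13089 tested genes it lay within that range for 7287, below it for 2307 and above it for 3495. Ang II replicates 1 and 2 were both above all treated hearts for 9 of the 16 members and for 7023 of the 13089 genes. The mean of log2(FPKM + 1) over the 16 members was 2.22, 2.43 and 1.31 under Ang II alone, against 1.24, 1.98 and 1.33 with added Tec. The plot of FPKM by member shows Ang II replicate 2, Ang II replicate 1 and Ang II + Tec replicate 2 as the highest hearts, in that order, for Sfrp1, Sfrp2, Fzd1 and Fzd2.

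**Figure D1:**
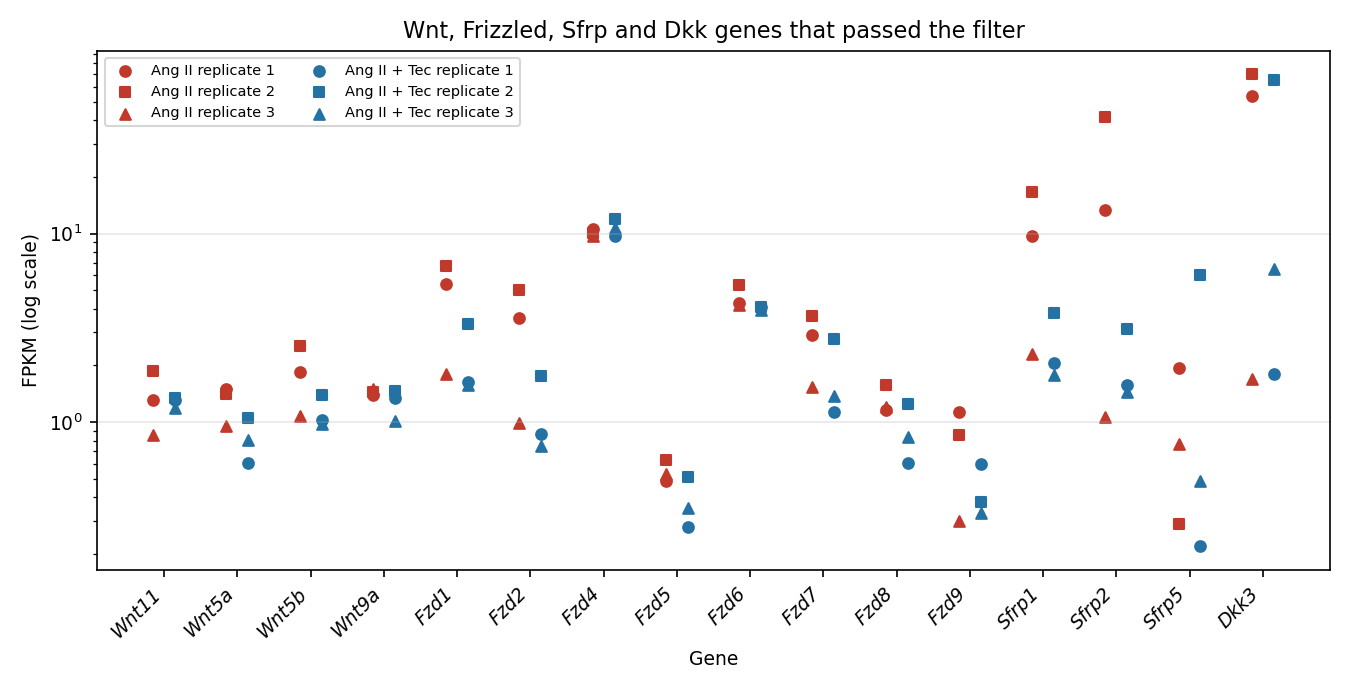
FPKM (log scale) of the 16 members that passed the filter, with 1 point per library, red for Ang II and blue for Ang II + Tec, and circles, squares and triangles for replicates 1, 2 and 3. The red triangles (Ang II replicate 3) lie among or below the blue points for Sfrp2 (1.07 FPKM), Sfrp1 (2.31 FPKM), Fzd1 (1.80 FPKM) and Dkk3 (1.69 FPKM), while the Fzd4 points lie together between 9.66 and 12.00 FPKM.

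Among the ligands, Wnt5b, Wnt9a, Wnt11 and Wnt5a passed the filter, each with a mean over the 6 libraries between 1.06 and 1.48 FPKM, and the ranges of the 4 genes over the hearts overlapped. Wnt5a, a ligand that mostly acts without β-catenin, was at 1.51, 1.41 and 0.96 FPKM under Ang II alone, against 0.61, 1.05 and 0.81 FPKM with added Tec. The groups overlapped, since Ang II replicate 3 was under the second treated heart. The group values were 1.29 ± 0.293 (SD, n = 3) and 0.823 ± 0.220 FPKM (SD, n = 3), and the difference on the log2 scale was -0.33 (standard error 0.14, limma adjusted p-value 0.274). Wnt5b, its close relative, had 1.85, 2.53 and 1.08 FPKM under Ang II alone, against 1.03, 1.40 and 0.98 FPKM with added Tec, and again Ang II replicate 3 lay among the treated hearts (-0.37, standard error 0.20). Wnt9a was nearly level, between 1.02 and 1.5 FPKM over the 6 libraries (-0.11, standard error 0.11). Wnt11, which is known for its part in heart development, ranged from 0.86 to 1.88 FPKM, with both ends in the Ang II group (-0.019, standard error 0.17). Wnt9a and Wnt11 had the opposite sign with median-of-ratios scaling (0.026 and 0.13) and with quantiles (0.047 and 0.15), so these data give them no direction.

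The other 12 ligands were below the filter. Wnt9b was at 1.00, 0.47 and 0.14 FPKM under Ang II alone, against 0.10, 0.15 and 0.07 FPKM with added Tec. It was highest in Ang II replicate 1, and Ang II replicate 3 fell inside the treated range. Wnt2b reached 0.50 FPKM in Ang II + Tec replicate 2 and at most 0.20 FPKM in the other libraries. Wnt2, Wnt16, Wnt10b, Wnt6 and Wnt4 had their highest values at 0.20, 0.16, 0.15, 0.14 and 0.10 FPKM. Wnt10a, Wnt8b, Wnt7a and Wnt7b did not exceed 0.03 FPKM, and Wnt1 was listed at 0 in the 6 libraries. The ligand genes with a near neighbour were low, as most ligand genes were (12 of 16 below the filter). Wnt6 and Wnt10a lie 6193 bases apart on chromosome 1 and Wnt10b and Wnt1 lie 11706 bases apart on chromosome 15, and none of these 4 genes exceeded 0.15 FPKM. The ligand total was 7.55, 8.54 and 4.99 FPKM under Ang II alone, against 4.63, 6.63 and 4.53 FPKM with added Tec.

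The Frizzled receptors were the part of the family with the most members above the filter, at 8 of 10. Fzd4, a receptor best known from blood vessel growth, was the highest of them. It was at 10.59, 10.03 and 9.76 FPKM under Ang II alone, against 9.66, 12.00 and 10.66 FPKM with added Tec. The highest value was 1.24 times the lowest, the narrowest range of the 16 members, and the groups overlapped. The log2 fold change was 0.077 (standard error 0.12, limma adjusted p-value 0.696). After rescaling by the median of ratios it was 0.30 (standard error 0.10, limma adjusted p-value 0.281), and Fzd4 was then the 1 member that was higher at an unadjusted p-value under 0.05, where 7.56% of all tested genes were. The 6 endothelial markers, which include Pecam1 and Cdh5, had summed FPKM of 75.62 to 80.24 in the Ang II group and 69.25 to 76.5 in the Ang II + Tec group and none listed at 0 throughout.

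Fzd6 was the next level receptor, at 4.30, 5.31 and 4.19 FPKM under Ang II alone, against 4.07, 4.10 and 3.92 FPKM with added Tec. It was the 1 member of 16 in which the groups did not overlap, where 18.9% of all tested genes were lower with Tec without overlap and 2.9% were higher. The lowest Ang II value was close to the highest Ang II + Tec value, the log2 fold change was -0.15 (standard error 0.12), and its sign turned with median-of-ratios scaling (0.051) and with quantiles (0.057).

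Fzd1 and Fzd2, closely related receptors that act through β-catenin as well as without it, followed the pattern of the Ang II hearts. Fzd1 was at 5.44, 6.70 and 1.80 FPKM under Ang II alone, against 1.64, 3.33 and 1.57 FPKM with added Tec. Fzd2 was at 3.59, 5.03 and 0.99 FPKM and at 0.87, 1.75 and 0.75 FPKM. For both genes, Ang II replicates 1 and 2 were above every treated heart, and Ang II replicate 3 was under the second treated heart. The log2 fold changes were -0.75 (standard error 0.39, limma adjusted p-value 0.324) for Fzd1 and -0.87 (standard error 0.40, limma adjusted p-value 0.286) for Fzd2. Fzd7, the third member of this subfamily, was at 2.90, 3.68 and 1.54 FPKM and at 1.14, 2.76 and 1.37 FPKM (-0.43, standard error 0.29). Here Ang II + Tec replicate 2 lay just below Ang II replicate 1.

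The remaining receptors were low. Fzd8 lay between 0.61 and 1.58 FPKM (-0.30, standard error 0.15), Fzd9 between 0.30 and 1.14 FPKM (-0.27, standard error 0.19) and Fzd5 between 0.28 and 0.63 FPKM (-0.17, standard error 0.10). In each of the 3 the groups overlapped. Fzd3 did not exceed 0.22 FPKM and Fzd10 did not exceed 0.06 FPKM. The order of the receptors by mean FPKM over the 6 libraries was Fzd4 (10.45), Fzd6 (4.32), Fzd1 (3.41), Fzd7 (2.23), Fzd2 (2.16), Fzd8 (1.11), Fzd9 (0.602) and Fzd5 (0.465). Fzd4 was above every other receptor in each library, whereas Fzd7 and Fzd2 changed places between hearts.

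**Figure D2:**
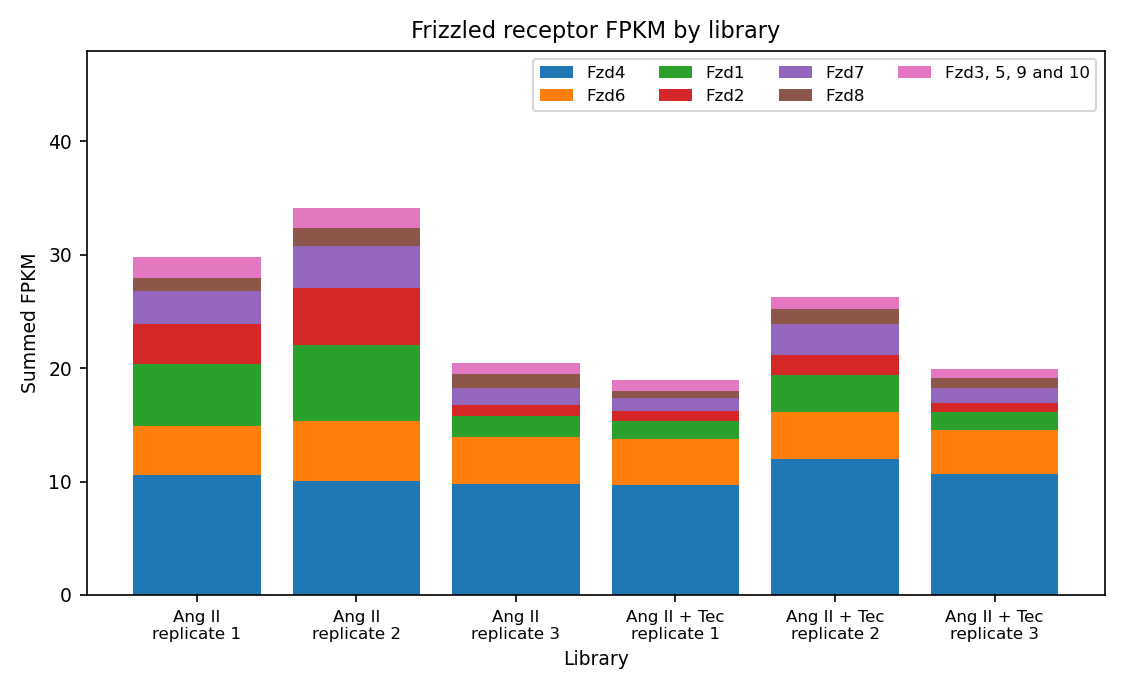
Summed FPKM of the 10 Frizzled genes in each library, with 1 stacked bar per library and 1 colour per receptor (Fzd3, Fzd5, Fzd9 and Fzd10 together). The totals were 29.85, 34.09 and 20.46 FPKM under Ang II alone, against 18.99, 26.27 and 19.96 FPKM with added Tec, and the Fzd4 segment keeps nearly the same height while those of Fzd1 and Fzd2 change.

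The make-up of the Frizzled RNA differed between hearts, as the plot of summed Frizzled FPKM shows. Fzd4 held 29.4% of it in Ang II replicate 2 and 53.4% in Ang II + Tec replicate 3. Fzd2 held 14.8% and 3.76% in the same libraries.

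The secreted inhibitors had the widest ranges. Sfrp2, a Wnt-binding protein made by fibroblasts, was at 13.40, 41.64 and 1.07 FPKM under Ang II alone, against 1.57, 3.14 and 1.44 FPKM with added Tec. Ang II replicates 1 and 2 were above all treated hearts, while Ang II replicate 3 was the lowest of the 6. The group values were 18.7 ± 20.8 (SD, n = 3) and 2.05 ± 0.946 FPKM (SD, n = 3), and the log2 fold change was -1.87 (standard error 0.97, limma adjusted p-value 0.320). The SD of the Ang II group exceeded its mean, and the difference did not pass the test.

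Sfrp1, another Wnt-binding inhibitor, was at 9.71, 16.66 and 2.31 FPKM under Ang II alone, against 2.07, 3.80 and 1.77 FPKM with added Tec. Ang II replicates 1 and 2 were again above all treated hearts, with Ang II replicate 3 below Ang II + Tec replicate 2. The log2 fold change was -1.31 (standard error 0.57, limma adjusted p-value 0.272). Sfrp5, known from adipose tissue, stood apart from both. It was at 1.94, 0.29 and 0.77 FPKM under Ang II alone, against 0.22, 6.01 and 0.49 FPKM with added Tec. The single value of Ang II + Tec replicate 2 set its log2 fold change of 0.31 (standard error 0.65), which was -0.49 (standard error 0.34) without that library. The 5 adipocyte markers, which include Adipoq and Ucp1, had summed FPKM of 0.49 to 9.93 in the Ang II group and 0.15 to 62.89 in the Ang II + Tec group, with the 62.89 in the same replicate 2 and Ucp1 listed at 0 in the other treated hearts. The 6 epicardial and mesothelial markers, from 0.58 to 12.61 and from 1.79 to 18.34 FPKM, were also highest there. Sfrp5 did not follow these sums in the Ang II group, where replicate 2 had the highest of both (9.93 and 12.61) and the lowest Sfrp5 (0.29 FPKM). The part of these tissues in the Sfrp5 value was not tested. Sfrp4 was below the filter and reached 0.44 FPKM, in Ang II replicate 2.

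Dkk3 had the highest mean FPKM of the 34 members over the 6 libraries. It belongs to the Dkk family by sequence but is not a typical blocker of Lrp5 and Lrp6. Dkk3 (chromosome 7 from 112116017 to 112159057) was at 53.75, 69.88 and 1.69 FPKM under Ang II alone, against 1.81, 64.83 and 6.47 FPKM with added Tec. It was high in 2 Ang II hearts and 1 treated heart and low in the other 3, so the groups overlapped over most of their range. The group values were 41.8 ± 35.6 (SD, n = 3) and 24.4 ± 35.1 FPKM (SD, n = 3), and the log2 fold change was -0.97 (limma, standard error 1.5, adjusted p-value 0.704), or 0.021 without Ang II + Tec replicate 1. Dkk2 reached 0.13 FPKM, Dkk1 reached 0.03 FPKM and Dkk4 was listed at 0 in the 6 libraries, so Dkk3 held at least 99.5% of the Dkk FPKM in each heart.

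The 3 hearts with high Dkk3 were those in which the atrial transcripts Myl7, Myl4 and Sln were high. The mean of log2(FPKM + 1) over Myl7, Myl4, Sln, Bmp10 and Stard10 was 5.53, 5.70 and 0.79 under Ang II alone, against 0.69, 7.29 and 1.16 with added Tec. Summed over the 6 atrial markers, which also include Nppa, the FPKM ranged from 264.69 to 10276.2 in the Ang II group and from 136.93 to 5111.81 in the Ang II + Tec group. Nppa made up most of this sum in each library, with 9455.92 of the 10276.2 FPKM in Ang II replicate 2. The study used Nppa (Anp) as a gene of cardiac hypertrophy, so this sum is not a measure of atrial tissue alone. Myl7 was listed at 0 in Ang II replicate 3 and Ang II + Tec replicate 1, and Bmp10 in Ang II replicate 3 and Ang II + Tec replicates 1 and 3. Bmp10 was at 1.11 and 0.06 FPKM in Ang II replicates 1 and 2, against 23.94 FPKM in Ang II + Tec replicate 2. With the 5-gene score as a covariate, the log2 fold change of Dkk3 was -0.27 (standard error 0.46, limma adjusted p-value 0.716), with a standard error less than that of the fit without it (1.5). The 3 hearts with high Dkk3 also had the highest sums of general fibroblast markers (895.26 FPKM or more, against 572.87 or less). The same held for smooth muscle and pericyte markers (271.85 FPKM or more, against 245.2 or less). The part of each tissue in the Dkk3 values was not tested.

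**Figure D3:**
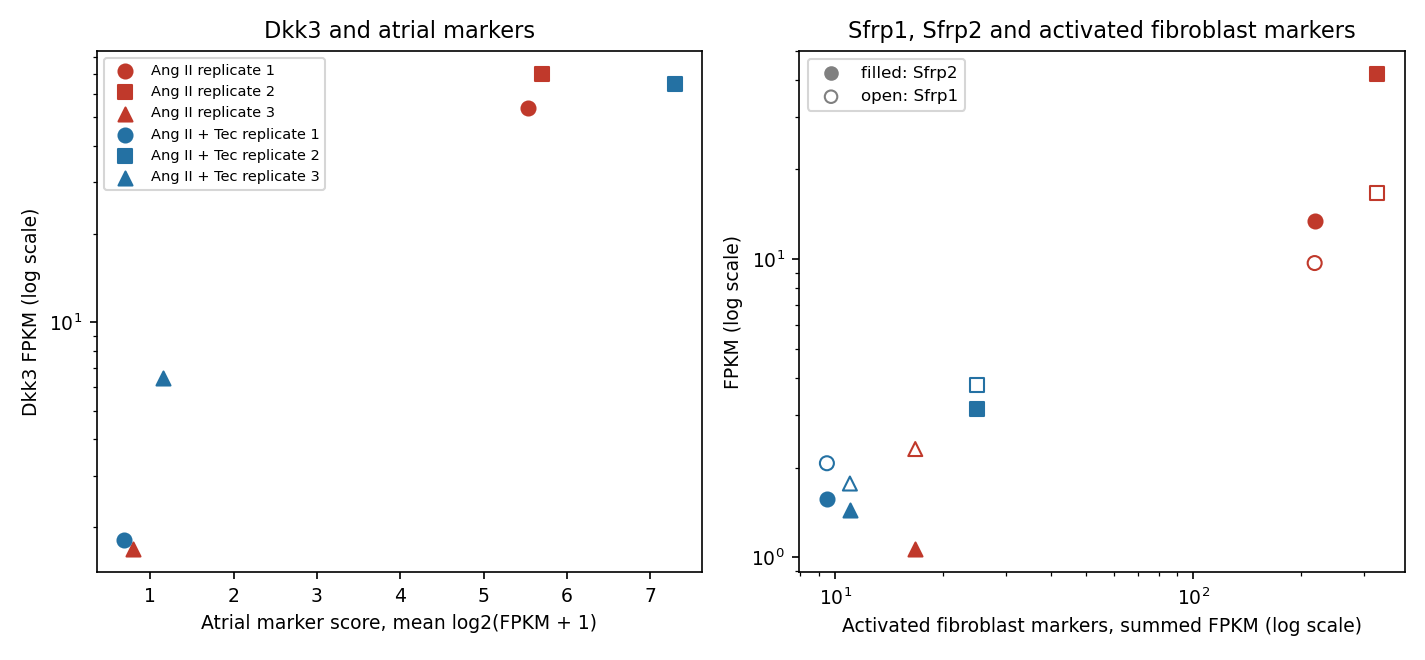
Left, Dkk3 FPKM (log scale) against the atrial marker score (mean of log2(FPKM + 1) over 5 genes), with 1 point per library, red for Ang II and blue for Ang II + Tec. Right, FPKM of Sfrp2 (filled) and Sfrp1 (open) against the summed FPKM of 6 activated fibroblast markers, both on log scales, with the same colours and symbols. Dkk3 is at 53.75 FPKM or more in the 3 libraries with scores of 5.53 or more, and the highest Sfrp1 and Sfrp2 values lie in the 2 libraries with fibroblast sums of 217.97 and 325.87 FPKM.

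The high Sfrp1, Sfrp2, Fzd1 and Fzd2 values went with markers of activated fibroblasts, though not with these alone. The 6 markers, which include Postn, Fap and Cthrc1, summed to 217.97, 325.87 and 16.73 FPKM under Ang II alone, against 9.48, 24.81 and 10.99 FPKM with added Tec, with none listed at 0 throughout. Ang II replicates 1 and 2 were high and the other 4 hearts low, as they were for Sfrp1 and Sfrp2. The sums of the 9 general fibroblast markers ranged from 433.62 to 1270.24 FPKM under Ang II alone and from 474.93 to 895.26 FPKM with added Tec. For each of these markers except Gsn, Ang II replicates 1 and 2 were above every treated heart. Col1a1 was at 82.67, 100.36 and 7.09 FPKM under Ang II alone, against 4.20, 8.06 and 3.83 FPKM with added Tec. Dcn was at 194.42, 205.02 and 82.91 FPKM, against 81.6, 134.01 and 95.35 FPKM. In both genes Ang II replicate 3 lay inside the treated range. Gsn had the higher mean with Tec (283 ± 53.8 and 429 ± 156 FPKM, SD, n = 3). In RNA of whole tissue, fewer cells of a type and less RNA per cell cannot be told apart, and the part of fibroblast number in these values was not tested. The summed FPKM of the 6 macrophage markers was 201.51 to 408.3 in the Ang II group and 141.54 to 155.09 in the Ang II + Tec group. Lyz2 made up most of this sum. Lyz2, Cd68, Csf1r and C1qa were lower with Tec without overlap, as were 18.9% of all tested genes. Adgre1 and Cd163 overlapped between the groups. The summed FPKM of the 8 smooth muscle and pericyte markers ranged from 206.54 to 471.97 over the 6 libraries and that of the 4 blood markers from 147.11 to 1015.02. Ang II replicates 1 and 2 were also the highest libraries for the macrophage sum (257.72 and 408.3 FPKM) and for the blood sum (645.92 and 1015.02 FPKM).

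In the fits that left out 1 library, these members passed the limits without Ang II replicate 3 and in no other. Whether that library carries the right label was not tested. If the label is right, leaving it out removes a valid heart that lay among or below the treated hearts for most members. The standard error of Sfrp2 was 0.97 with that heart and 0.44 without it. The calls that follow therefore depend on leaving out that library. Without it, 4 of the 16 were differentially expressed and lower with Tec, namely Sfrp2 (-3.06, standard error 0.44, limma adjusted p-value 0.00557), Sfrp1 (-2.0, standard error 0.285, limma adjusted p-value 0.00557), Fzd2 (-1.34, standard error 0.22, limma adjusted p-value 0.00816) and Fzd1 (-1.19, standard error 0.24, limma adjusted p-value 0.0134). Without Ang II replicate 2 instead, the log2 fold changes were smaller in size, at -0.88 for Sfrp2, -0.79 for Sfrp1, -0.54 for Fzd2 and -0.46 for Fzd1, and none of the 4 was differentially expressed. The fit without Ang II replicate 3 called 4.26% of all tested genes, and 8 members were lower at an unadjusted p-value under 0.05, where 39.3% of all tested genes did so. With the atrial score as a covariate, 5 members (Fzd1, Fzd2, Fzd7, Sfrp1 and Wnt5a) were lower at an unadjusted p-value under 0.05, against 23.6% of all tested genes, and 0 were differentially expressed, against 0.107% of all tested genes. With library weights, the 5 members Dkk3, Fzd1, Fzd2, Sfrp1 and Sfrp2 were differentially expressed, against 3.86% of all tested genes. The weights were 0.191 for Ang II replicate 3 and 4.46 for Ang II replicate 1. Ang II + Tec replicate 2, the treated heart with high Dkk3, had a weight of 0.382. The plot of fitted differences shows each member with and without Ang II replicate 3 and with the covariate.

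**Figure D4:**
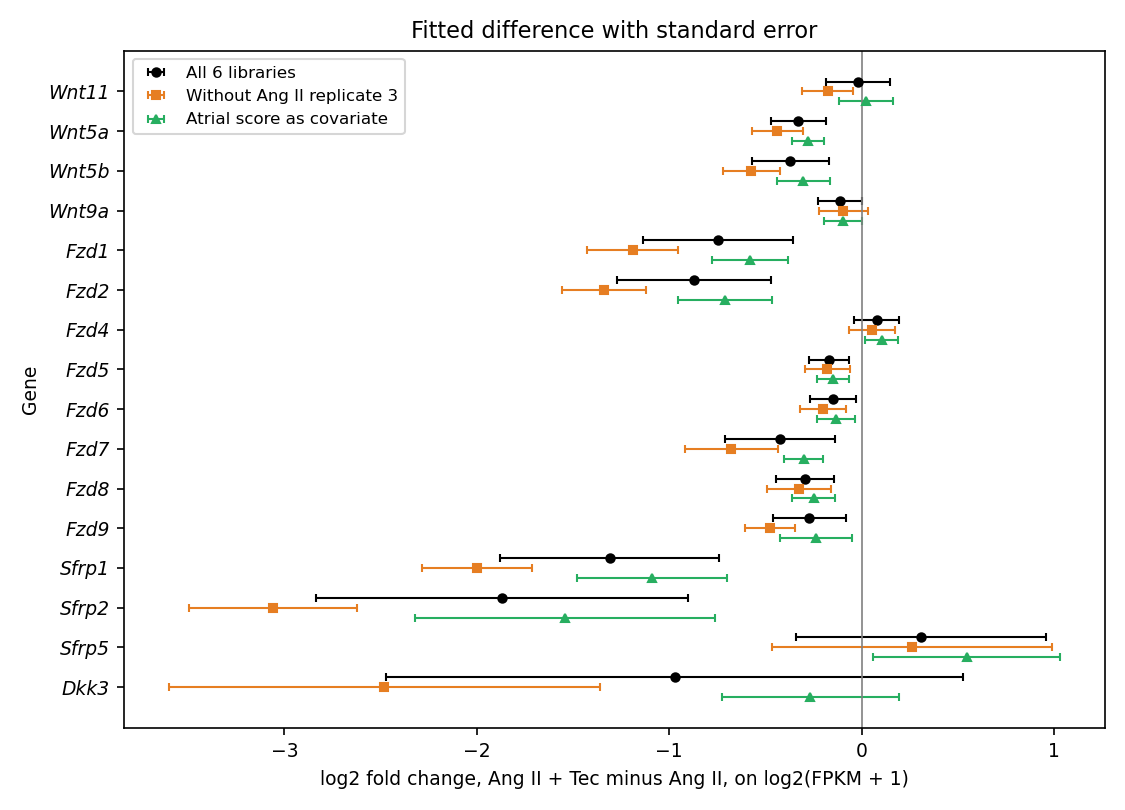
Log2 fold change (Ang II + Tec minus Ang II, on log2(FPKM + 1)) of the 16 tested members with its standard error, from all 6 libraries (black circles), without Ang II replicate 3 (orange squares) and with the atrial marker score as a covariate (green triangles). Sfrp2 moves from -1.87 to -3.06 without Ang II replicate 3, and the standard error of Dkk3 shrinks from 1.5 to 0.46 with the covariate.

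The other parts of the pathway were read from 8 lists with 79 genes in the table, of which 58 were tested. Of the 58, 47 had a lower mean of log2(FPKM + 1) with Tec (80% of all tested genes). In the limma fit of all libraries, 7 were lower at an unadjusted p-value under 0.05 (16.5% of all tested genes) and 0 were higher. Differential expression was found for 0 of the 58. The median log2 fold change was -0.145, near that of all tested genes (-0.17). Lower means were found for 3 of 5 co-receptors, 2 of 3 ligand-processing genes, 1 of 2 genes of the R-spondin branch, 2 of 3 other secreted inhibitors, 14 of 14 cytoplasmic genes, 7 of 10 nuclear genes, 7 of 8 target and feedback genes and 11 of 13 genes of the branch without β-catenin. These directions depended on the scaling, since with the median of ratios 26 of the 58 genes had lower means (median 0.031) and with quantiles 24 did. The 7 genes below the unadjusted limit were Frzb, Ryk, Dvl2, Cby1, Ccn4, Nkd2 and Vangl1.

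Outside the cell, Frzb, a secreted Wnt-binding protein of the Sfrp family that does not carry its name, was at 18.03, 28.08 and 2.05 FPKM under Ang II alone, against 1.74, 2.95 and 1.61 FPKM with added Tec. This is the order of hearts seen for Sfrp1, with Ang II replicate 3 inside the treated range. The log2 fold change of Frzb was -1.97 (standard error 0.76, limma adjusted p-value 0.248), and -2.95 (standard error 0.24, limma adjusted p-value 0.000973) without Ang II replicate 3. That fit called 4.26% of all tested genes. The co-receptors of the β-catenin branch differed between the groups by less than their SDs. Lrp5 was at 2.98 ± 0.366 (SD, n = 3) and 3.00 ± 0.399 FPKM (SD, n = 3), and Lrp6 at 3.07 ± 0.529 (SD, n = 3) and 2.78 ± 0.705 FPKM (SD, n = 3). Ryk, a co-receptor used by Wnts that act without β-catenin, was at 13.58, 14.64 and 8.77 FPKM and at 7.65, 9.34 and 8.66 FPKM (-0.46, standard error 0.19, limma adjusted p-value 0.266). Its log2 fold change was -0.23 with median-of-ratios scaling.

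Inside the cell, the 14 cytoplasmic genes all had lower means with Tec in the fit of all 6 libraries, with a median of -0.157, but 6 of 14 did with median-of-ratios scaling and 5 of 14 with quantiles. Ctnnb1, which encodes β-catenin, was at 64.12, 72.37 and 51.94 FPKM and at 58.18, 64.24 and 52.56 FPKM (-0.097, standard error 0.15), and its sign turned with median-of-ratios scaling (0.145). Dvl2, an adaptor that binds Frizzled, was at 1.72, 1.52 and 2.23 FPKM under Ang II alone, against 1.31, 1.18 and 0.94 FPKM with added Tec (-0.39, standard error 0.135, limma adjusted p-value 0.229). The groups did not overlap, where 18.9% of all tested genes were lower with Tec without overlap, and the highest Dvl2 value was in Ang II replicate 3. Cby1, a β-catenin antagonist, was at 15.99, 15.41 and 10.97 FPKM and at 9.11, 10.30 and 10.40 FPKM (-0.45, standard error 0.16, limma adjusted p-value 0.231), also without overlap. With median-of-ratios scaling the log2 fold changes were -0.255 for Dvl2 and -0.225 for Cby1.

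Among target and feedback genes, Axin2, the usual readout of β-catenin activity, was below the filter at 0.56, 0.40 and 0.41 FPKM under Ang II alone, against 0.25, 0.68 and 0.45 FPKM with added Tec. The groups overlapped throughout, with both the lowest and the highest value in treated hearts. Nkd2, an inhibitor that binds Dvl, was at 2.10, 2.80 and 0.47 FPKM and at 0.41, 0.53 and 0.40 FPKM (-0.84, standard error 0.32, limma adjusted p-value 0.246). Ccn4, a matricellular protein first found as a Wnt-induced gene, was at 1.88, 2.73 and 0.58 FPKM and at 0.13, 0.87 and 0.41 FPKM (-0.84, standard error 0.33, limma adjusted p-value 0.249). For both, Ang II replicate 3 lay inside the treated range. Without that library both were differentially expressed (-1.25 and -1.19), where 4.26% of all tested genes were. Vangl1, a planar cell polarity protein, was at 1.27, 1.51 and 0.99 FPKM and at 0.89, 0.91 and 0.72 FPKM (-0.29, standard error 0.12, limma adjusted p-value 0.266). The groups were without overlap, as were 18.9% of all tested genes in that direction, and the log2 fold change was -0.161 with median-of-ratios scaling.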

How the data were processed

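Poly(A) RNA from 6 hearts (3 Ang II, 3 Ang II + Tec) was sequenced, and the authors deposited a table of FPKM for 30914 genes. The submitters' processing notes name Bowtie 0.12.2, HISAT2 2.0 and StringTie 1.3.0, with no role given here, and the build mm8, whereas the coordinates of 32 of the 34 members equal those of a GRCm38 annotation. FPKM are not counts. The study states a nominal transcriptome depth but no read total per library, and whole reads could not be recovered from the 2 decimals given, so the depth behind each value is unknown. The labels number the hearts and do not say more of their origin. The p-values therefore set the group difference against the spread between these samples within the groups.

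Genes with at least 0.5 FPKM in 3 libraries were fitted with limma 3.58.1 (R 4.3.3, lmFit and eBayes with trend) on log2(FPKM + 1), with Benjamini-Hochberg adjustment over all tested genes. Tables and plots were made with pandas 2.3.3 and matplotlib 3.10.9. The fit was tested on simulated data, drawn independently for each gene and library. They held no differences shared by a whole library, so this check does not bear on the calls given here. Alternatives were a pseudocount of 0.1, no filter or a filter of 1 FPKM, scaling by the median of ratios, to an equal non-mitochondrial sum or by quantiles, a robust fit without trend, library weights, the atrial marker score as a covariate, a replicate block and leaving out each library.

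The members and the gene lists were chosen with earlier results of these data known. Values in each library were to be given for members with a group mean of at least 5 FPKM or an unadjusted p-value under 0.05, and ranges for the rest. Pathway genes were named at an unadjusted p-value under 0.05, with Axin2, Ctnnb1, Lrp5, Lrp6 and Frzb in any case, and of the markers Myl7 and Col1a1. The values by library of Wnt5a, Wnt5b, Wnt9b, Fzd1, Fzd2, Fzd6, Fzd7 and Sfrp5 were chosen after their values were seen. So were the promoters shown and the statements on Epcam, Krt18, Ucp1, Gsn, Dcn, Lyz2, Cd68, Csf1r, C1qa, Adgre1 and Cd163. The same holds for those on Bmp10, Myl4, Sln, Stard10 and Nppa.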

Additional observations from a re-analysis of the deposited data

How the results depend on the processing

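No member was differentially expressed under the alternatives other than library weights (5 members, 505 of all genes) and leaving out Ang II replicate 3 (4 members, 557 of all genes), and over the 6 fits without 1 library these counts ranged from 0 to 4 and from 2 to 557. Library weights gave Ang II replicate 3 a weight of 0.191, Ang II + Tec replicate 2 a weight of 0.382 and Ang II replicate 1 a weight of 4.46. Without a filter, 3 of all genes were differentially expressed and 25 of 32 members were lower, where 67% of all genes were. The count of members lower at an unadjusted p-value under 0.05 was 11 with library weights (59.7% of all genes), 5 with the atrial score and 0 to 8 without 1 library, and the count of higher members was 1 with the median of ratios and 1 with quantiles (8.33% of all genes). The replicate block gave 8 members lower at that limit (22.9% of all genes), 0 differentially expressed members and 22 of all genes. Samples of the same number had correlated deviations of -0.0394, 0.429 and 0.379, and Ang II replicate 1 correlated best with Ang II + Tec replicate 2 (0.212), so they were taken to share only a number. Of 410 values for 26 named genes, 373 kept their direction and their side of the limit, 15 passed it and 22 changed sign. With the median of ratios and quantiles the log2 fold changes were 0.0508 and 0.0571 for Fzd6, 0.128 and 0.147 for Wnt11, 0.0259 and 0.0471 for Wnt9a, 0.145 and 0.135 for Ctnnb1 and 0.0676 and 0.0864 for Lrp6. Wnt11 was at 0.00021 with an equal non-mitochondrial sum and 0.0212 with the atrial score. With library weights, Fzd4 was at -0.00569, Sfrp5 at -0.684 and Lrp5 at -0.147. Over the fits without 1 library, the range was -2.48 to 0.021 for Dkk3, -0.485 to 0.777 for Sfrp5, -0.176 to 0.139 for Wnt11, -0.225 to 0.0103 for Ctnnb1 and -0.0735 to 0.069 for Lrp5. The causes were not tested. Depth per library is unknown, so no counting error can be given for members of low FPKM.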
